A study of Caenorhabditis elegans with 11 samples.

Results

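The change from young adult (1 day) to day 5 was described in wild-type N2 Caenorhabditis elegans kept on 5 mM DOG, over all genes and over named gene families and tissues. DOG, 2-deoxy-D-glucose, is a glucose analogue that enters cells but cannot be used in glycolysis. The RNA-seq libraries were taken by their age labels, 3 at 1 day and 3 at 5 days, which is 6 of the 11 libraries of the series. The other 5 libraries, of 10 and 20 days, entered the shared fit and are used here for levels at later ages. The worms of both ages carried the same wild-type genotype and received the same treatment. They were moved to DOG plates after the fourth larval stage, fed heat-inactivated bacteria and washed each day to remove offspring. Each library came from a pool of many worms, and no source says whether the 3 replicates were separate cultures, so all p-values measure the spread between these libraries, which may be technical. Controls without DOG were not analysed here, so age and time on DOG cannot be told apart.

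A hermaphrodite makes its sperm during the last larval stage and then switches to oocytes for the rest of its life. The young adult has just finished its last molt and its growth slows over the following days, while egg laying peaks in the first days and ends when the stored sperm are used up. The intestine is the main site of yolk production, digestion, fat storage and defence against swallowed bacteria. The body of the adult no longer divides, so dividing cells are found in the germline and in the embryos held in the uterus.

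The depth was 23648292 to 40277713 counted reads in a library. Levels are given as CPM, counts per 1000000 counted reads after TMM adjustment of the library totals, which are shares of the counted reads and no absolute amounts. In whole worms, fewer cells of a type and less RNA per cell cannot be told apart. Of 14773 genes with at least 100 counts over the 11 libraries, 5093 (34.5%) were called higher at 5 days and 5019 (34%) lower, 10112 (68.4%) in all, by edgeR's quasi-likelihood test at an adjusted p under 0.01. With the further demand of a change of at least 2-fold, 1088 genes (7.36%) were higher and 2531 (17.1%) lower. The counts of list members given below are to be read against these shares of all genes tested. The median log2 change over all genes tested was -0.015, with quartiles of -0.70 and 0.42. Pearson's r of log2(CPM + 1) was 0.998 to 0.999 between libraries of the same age and 0.954 to 0.959 between libraries of different age. A gene that was high at a single age could pass the count minimum through that age alone, so the counts of members given for sperm, collagen and other such families describe the members that passed and are not evidence on all members. The plot of levels at both ages shows that the families with large changes lay mostly below the diagonal.

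**Figure D1:**
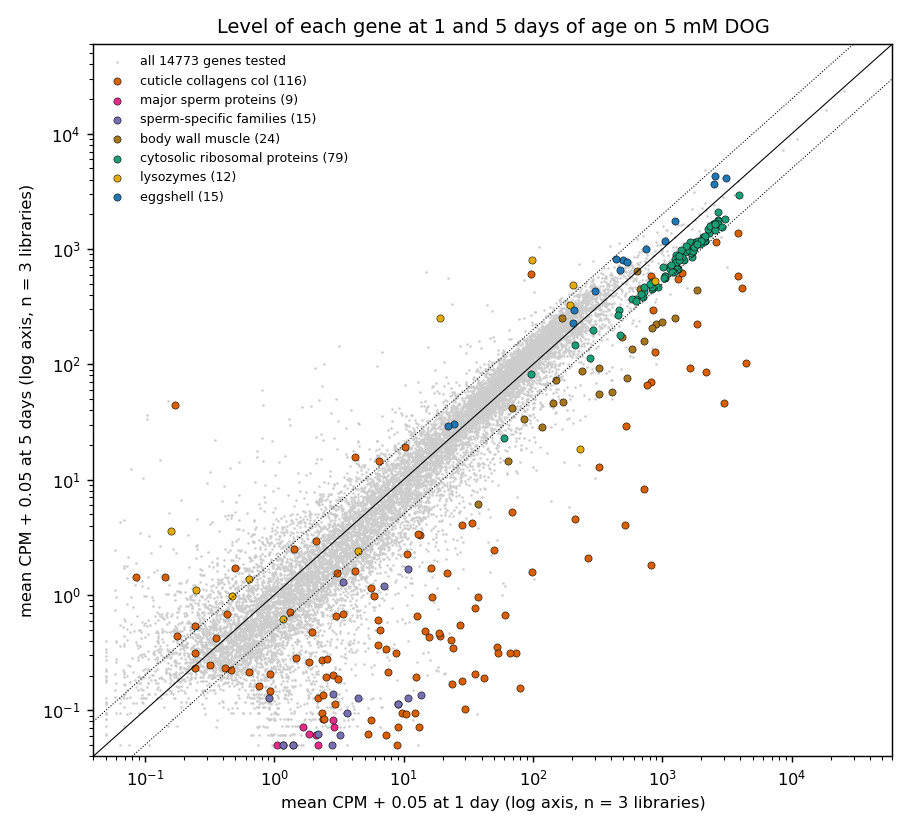
Mean CPM + 0.05 of each of the 14773 genes tested at 1 day (x axis) and 5 days (y axis), both on log axes, with n = 3 libraries per age and colours for members of 7 lists. The solid line marks equal levels and the dotted lines a 2-fold change. The cuticle collagens and the sperm families lie mostly far below the lower line, the ribosomal proteins form a narrow band below equality, and the eggshell genes lie slightly above equality.

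Transcripts of the major sperm protein genes were nearly absent at 5 days. The major sperm proteins form the filaments that let nematode sperm crawl and also signal to oocytes. The sum over the 9 members that passed the count minimum, of 30 in the annotation, was 14.5 to 19.2 CPM in the 1-day libraries and 0.0322 to 0.221 CPM in the 5-day libraries. Of these 9 genes 4 had no count at all at 5 days. The median log2 change was -7.20, or -6.03 with those genes set to the bound that a floor of 3 counts over the age group allows, against -0.015 over all genes tested. msp-142 had the highest level of the family and held 69, 100 and 100 counts in the 1-day libraries and 0, 2 and 0 in the 5-day libraries, a ratio of 128-fold (95% exact counting interval 35.1 to 1062) between the summed levels. msp-50 held 53, 67 and 82 counts at 1 day and none at 5 days, which is at least 64.1-fold lower. Major sperm protein genes are near-identical copies, and how reads shared between copies were treated cannot be read from the counts.

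The small sperm-specific families ssp, ssq, sss and nspd moved in the same direction. All 15 members that passed, of 23, were called lower, with a median of -7.04 (-5.77 with members at 0 set to their bound). ssq-2 stood at 13.5, 13.1 and 14 CPM in the 1-day libraries and 0.0361, 0.19 and 0.0322 CPM in the 5-day libraries (log2 change -7.21, SE 0.34, edgeR adjusted p = 8.0e-13). The ages did not overlap. gsp-4 and gsp-3 encode phosphatase subunits of sperm. gsp-4 held 60, 88 and 131 counts at 1 day and 0, 2 and 0 at 5 days, a ratio of 133-fold (95% exact counting interval 36.4 to 1101). gsp-3 stood at 2.61, 2.68 and 2.86 CPM at 1 day and 0.0721, 0.0949 and 0.0322 CPM at 5 days (log2 change -5.30, SE 0.60, edgeR adjusted p = 1.7e-07).

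Genes known from mutants with defective sperm went both ways. Of 17 tested of 25, 9 were called lower and 4 higher, with a median of -0.51. DESeq2, plain library sizes and a replicate block each called 7 lower, and the fits that left out a library called 7 or 8 lower. spe-29, needed for sperm activation, stood at 3.26, 3.17 and 3.42 CPM at 1 day and 0.721, 0.759 and 0.675 CPM at 5 days (log2 change -2.19, SE 0.19, edgeR adjusted p = 4.3e-09). spe-4, a presenilin of spermatocytes, had a log2 change of -1.88, and spe-11, a paternal factor needed by the embryo, of -1.74 (edgeR adjusted p = 1.9e-06 and 4.2e-06). Among the members called higher were cpb-1 (0.54), a cytoplasmic polyadenylation protein, fog-1 (0.37), a related RNA-binding protein that sets the sperm fate, and spe-39 (0.17), a vesicle-sorting protein that is also used outside sperm.

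The cuticle collagens fell furthest of the large families. They form the body surface and are secreted by the epidermis, in rounds tied to the larval molts and to the young adult stage. Of 116 col genes tested, of 159 in the annotation, 97 were called lower and 11 higher, and 94 were at least 2-fold lower, where 17.1% of all genes tested were. The median was -4.11 with quartiles of -6.02 and -1.92. The summed level of the tested members was 38189 to 40138 CPM in the 1-day libraries and 6467 to 8054 CPM in the 5-day libraries. At 1 day 77 of the members held 100 or more counts in every library, and at 5 days 28 did.

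col-19, the collagen used as a marker of the adult epidermis, stood at 2169, 2099.7 and 2194 CPM in the 1-day libraries and 74.7, 87.3 and 93.4 CPM in the 5-day libraries (log2 change -4.66, SE 0.07, edgeR adjusted p = 1.9e-20). The ages did not overlap. col-129 stood at 782, 795 and 858 CPM at 1 day and 1.08, 2.06 and 2.16 CPM at 5 days (log2 change -8.82, SE 0.09, edgeR adjusted p = 1.2e-21). col-122, which had the highest mean level of the family over both ages, stood at 3867, 3760.3 and 3979 CPM at 1 day and 1211, 1338 and 1561 CPM at 5 days (log2 change -1.50, SE 0.06, edgeR adjusted p = 2.0e-13), a smaller fall of 2.82-fold. col-119 and col-20 were at like levels at 1 day, with means of 3817 and 2969.6 CPM, and had log2 changes of -2.71 and -6.01 (edgeR adjusted p = 4.9e-18 and 1.9e-20). col-91 held 220, 285 and 323 counts at 1 day and none at 5 days, at least 263-fold lower.

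A small group of col genes went the other way. col-95 stood at 103, 93 and 94.8 CPM in the 1-day libraries and 534, 596 and 677 CPM in the 5-day libraries (log2 change 2.64, SE 0.07, edgeR adjusted p = 3.5e-16), so that every 5-day library was above every 1-day library. col-183 held 6, 1 and 3 counts at 1 day and 1117, 1424 and 1488 at 5 days (log2 change 8.68, SE 0.21, edgeR adjusted p = 2.8e-17), and col-43 rose from a mean of 4.17 to 15.7 CPM (log2 change 1.90, SE 0.10, edgeR adjusted p = 5.8e-12). The levels at later ages were lower. col-95 stood at 75.3 CPM at 10 days and 38.8 CPM at 20 days, col-183 at 3.42 CPM at 10 days and 1.71 CPM at 20 days and col-43 at 3.65 CPM at 10 days and 0.461 CPM at 20 days.

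The collagens named for the body shape of their mutants (dumpy, roller, squat and blister genes) had a median of -3.98, with 14 lower, 3 higher and 2 not called of 19. dpy-5 stood at 51, 50.8 and 71.6 CPM at 1 day and 0.469, 0.854 and 1.51 CPM at 5 days (log2 change -5.91, SE 0.20, edgeR adjusted p = 4.2e-15). bli-2, a strut collagen of the adult cuticle, had a log2 change of -6.95, dpy-4 of -5.74 and sqt-1 of -4.67 (edgeR adjusted p = 7.6e-12, 4.7e-15 and 3.6e-12). dpy-14 stood at 2.53, 3.2 and 2.8 CPM at 1 day and 22.4, 22.5 and 23.8 CPM at 5 days (log2 change 2.997, SE 0.09, edgeR adjusted p = 1.8e-15) and dpy-17 at 7.46, 9.04 and 7.64 CPM at 1 day and 29.2, 31.6 and 36.1 CPM at 5 days (log2 change 2.002, SE 0.09, edgeR adjusted p = 1.8e-13). Members of this list thus moved in both directions, and the remaining rise, of dpy-10 (0.35), lost its call without 1-day replicate 1 or without 5-day replicate 2 or 3 (edgeR adjusted p = 0.026, 0.023 and 0.016). dpy-7, a furrow collagen, was not called (log2 change -0.17, SE 0.18, edgeR adjusted p = 0.41).

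**Figure D2:**
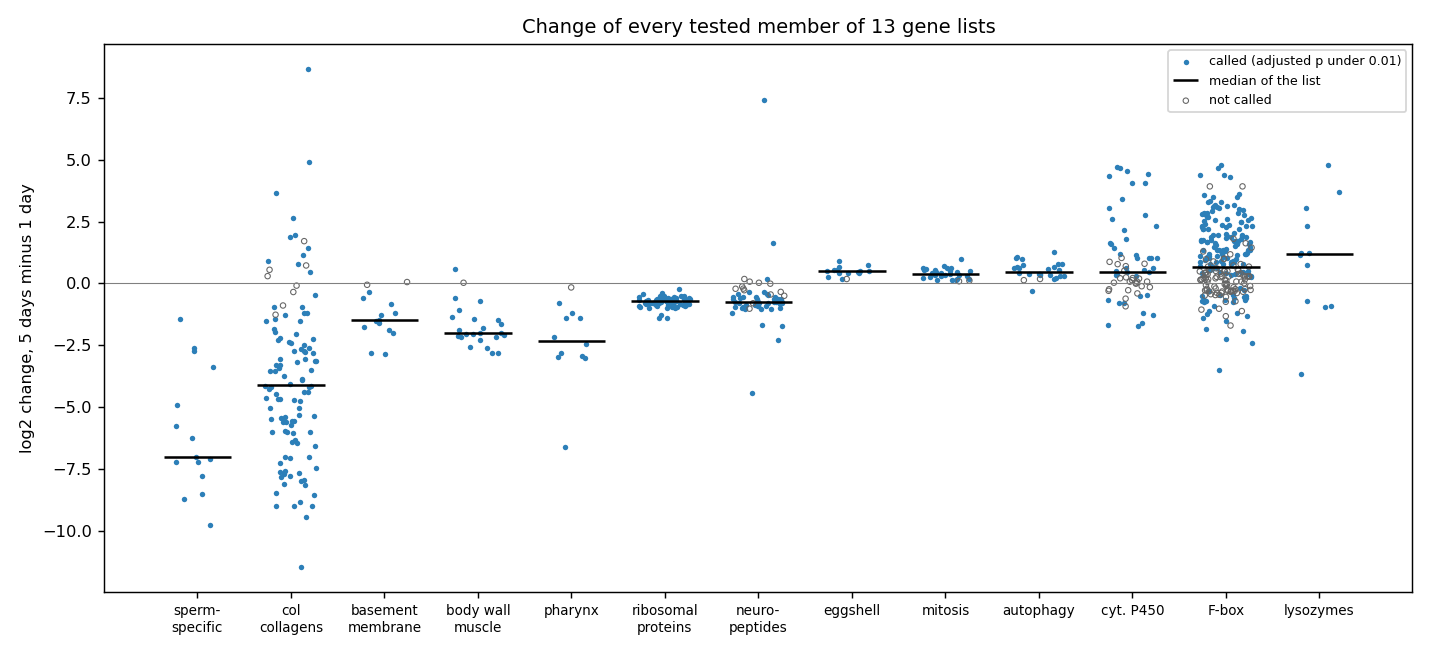
Log2 change from 1 to 5 days (y axis) of every tested member of 13 lists (x axis), with filled points for genes called at an edgeR adjusted p under 0.01, open points for genes not called and a black bar for the median. Members of the sperm, collagen and muscle lists spread over a wide range of falls, the ribosomal proteins sit in a narrow band from -1.40 to -0.21, and the P450, F-box and lysozyme lists hold members far above and below 0.

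Basement membranes, the sheets of matrix under epithelia and around muscle, lost transcripts too. Of 15 genes, 13 were called lower, none higher, and the median was -1.48. let-2 and emb-9 encode the chains of type IV collagen. let-2 stood at 612, 575 and 587 CPM at 1 day and 248, 239 and 241 CPM at 5 days (log2 change -1.29, SE 0.04, edgeR adjusted p = 3.0e-15) and emb-9 had a log2 change of -1.48 (edgeR adjusted p = 4.8e-16), while unc-52, the perlecan that anchors muscle, stood at 266, 247 and 249 CPM at 1 day and 37.4, 34.7 and 35.6 CPM at 5 days (log2 change -2.82, SE 0.04, edgeR adjusted p = 4.9e-20). The members not called were the laminin beta gene lam-1 (log2 change 0.058) and nidogen nid-1 (-0.053).

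Other products of the epidermis were mixed. Of 59 hedgehog-related and patched-related genes tested, of 85, 27 were lower and 17 higher (median -0.47). grd-10 stood at 14.8, 15.9 and 17.2 CPM at 1 day and 0.216, 0.221 and 0.225 CPM at 5 days (log2 change -6.16, SE 0.16, edgeR adjusted p = 1.6e-16), and grl-16 had a log2 change of -5.32, whereas the sterol-sensing family member ptr-22 rose by 1.32 and grl-10 by 1.43 (edgeR adjusted p = 6.5e-16, 1.4e-11 and 1.1e-09). ptc-1, a patched homologue used in the germline, had the highest level of the list and a log2 change of 0.43. Of 27 astacin metalloproteases, 15 were lower and 5 higher. nas-37, which digests the old cuticle at molts, had a log2 change of -2.08, and nas-11 of 1.31. The epidermis list, which holds regulators and cuticle genes, had 5 higher and 5 lower of 17 (median -0.13). That is 29.4% each way, where 34.5% and 34% of all genes tested were. Of the falls 4 were at least 2-fold. The summed level of the list was 2775 to 2884 CPM at 1 day and 717 to 729 CPM at 5 days. Its members include grd-10 and col-19, and col-19 alone made up most of that sum at 1 day and most of its fall. Its regulators went both ways. lin-26 and elt-1 had log2 changes of 0.49 and 0.60, the molting regulator nhr-23 of 0.30, and elt-3, a GATA factor of the differentiated epidermis, of -1.46 (edgeR adjusted p = 4.0e-10, 8.7e-07, 1.4e-06 and 2.5e-12).

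Transcripts of muscle fell in nearly all cases. Of 24 genes of filaments and attachments of body wall muscle, 22 were called lower, 20 of them at least 2-fold, with a median of -2.003 and quartiles of -2.17 and -1.42. unc-54, the major myosin heavy chain of body wall muscle, stood at 1873, 1833 and 1871 CPM in the 1-day libraries and 471, 411 and 454 CPM in the 5-day libraries (log2 change -2.06, SE 0.06, edgeR adjusted p = 1.6e-16). myo-3, the minor myosin at the filament centre, stood at 166, 169 and 175 CPM at 1 day and 51.7, 40.3 and 48.2 CPM at 5 days (log2 change -1.87, SE 0.07, edgeR adjusted p = 1.2e-14), and unc-15, paramyosin of the thick filament core, at 908, 865 and 896 CPM at 1 day and 231, 204 and 233 CPM at 5 days (log2 change -2.002, SE 0.05, edgeR adjusted p = 6.4e-17). Both ages were separate for each of these thick filament genes.

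Thin filament genes fell further in several cases. mup-2 and tnt-2 encode troponin T, with log2 changes of -2.82 and -2.80, tni-1 encodes troponin I, with -2.62, and lev-11 encodes tropomyosin, with -2.29 (edgeR adjusted p = 1.1e-18, 1.9e-19, 1.2e-15 and 8.3e-19). The actins act-1, act-3 and act-4 had log2 changes of -1.80, -1.49 and -2.005, and act-2, which is also used in embryos, of -0.59. The actin genes share long stretches of sequence, so the count of each single actin gene is uncertain. The giant protein genes unc-22 and unc-89 had log2 changes of -1.44 and -1.06. The exceptions were pat-3, the beta integrin of the attachment sites that is used in other tissues as well, which stood at 167, 167 and 171 CPM at 1 day and 254, 256 and 241 CPM at 5 days (log2 change 0.57, SE 0.04, edgeR adjusted p = 7.8e-11), and the actin-severing protein gene unc-60, which was not called (log2 change 0.029, SE 0.04, edgeR adjusted p = 0.47).

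Pharyngeal genes showed the same direction with a median of -2.31, 11 of 12 tested being lower. myo-2 and let-75 (also called myo-1) encode the pharyngeal myosins. let-75 stood at 232, 222 and 232 CPM in the 1-day libraries and 32.9, 32.3 and 32.6 CPM in the 5-day libraries (log2 change -2.81, SE 0.05, edgeR adjusted p = 9.7e-19), and myo-2 at 190.2, 174 and 186 CPM at 1 day and 35.4, 29.7 and 35.4 CPM at 5 days (log2 change -2.45, SE 0.06, edgeR adjusted p = 1.7e-17). The ages did not overlap for either myosin. The gland gene phat-4 stood at 17, 17.5 and 18.7 CPM at 1 day and 0.108, 0.19 and 0.225 CPM at 5 days (log2 change -6.63, SE 0.16, edgeR adjusted p = 2.8e-17). pha-4, the factor that specifies the pharynx, had a log2 change of -0.78 (edgeR adjusted p = 1.2e-06).

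**Figure D3:**
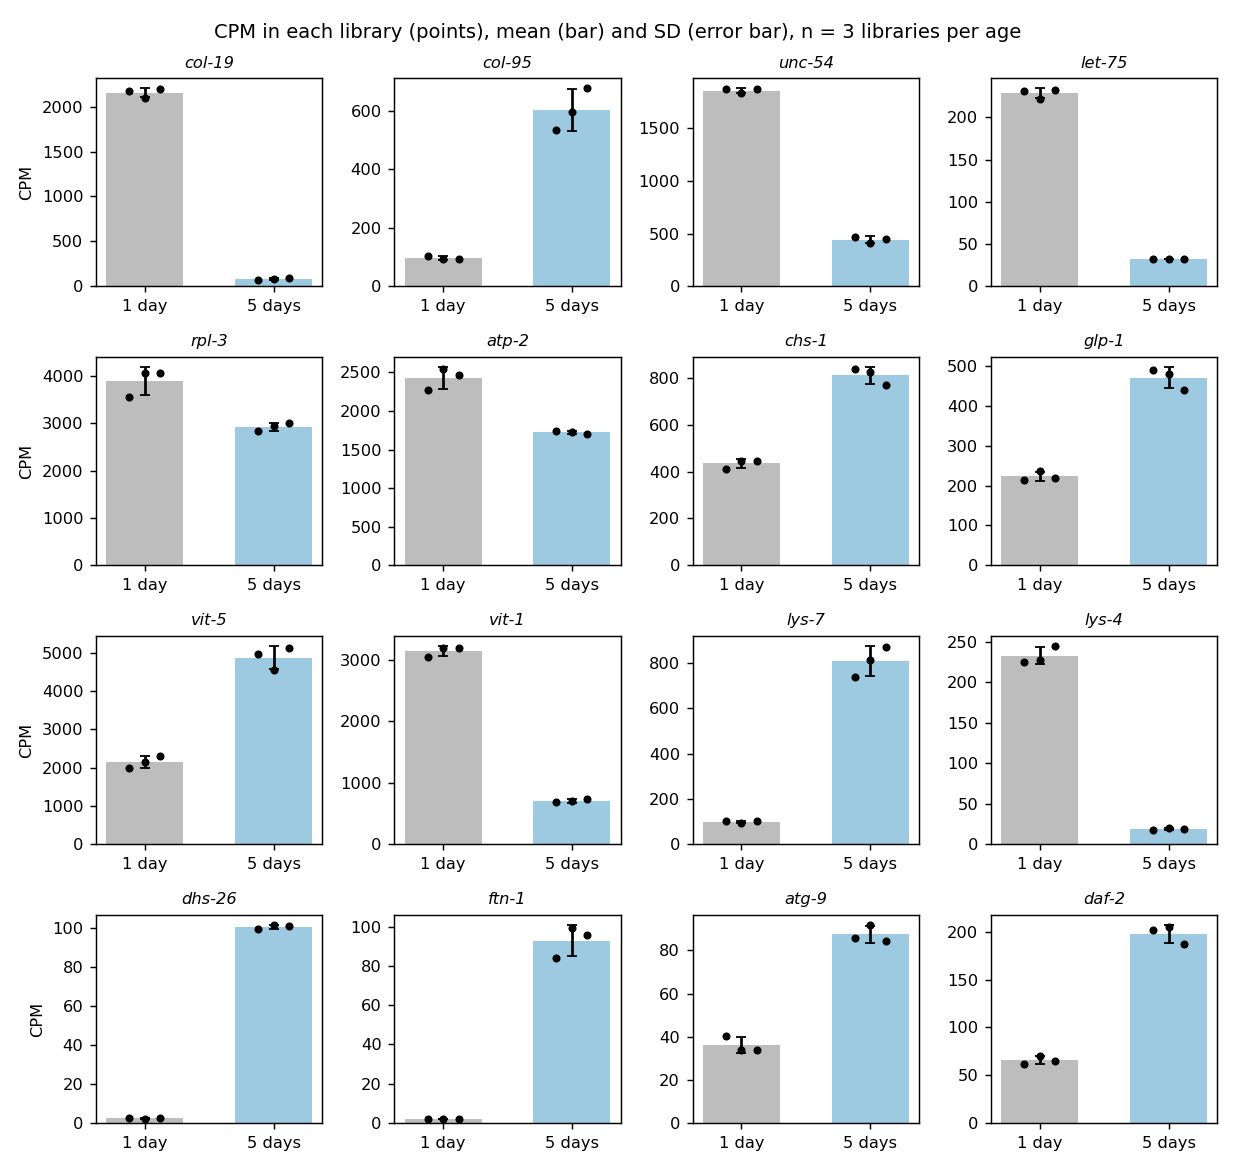
CPM of 16 genes (panels, each with its own y axis from 0) in each library at 1 and 5 days. Points are libraries, bars are means and error bars are SD with n = 3 libraries per age, and in all 16 panels the points of the ages do not overlap.

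Germline and oocyte genes rose by small amounts. The eggshell list had 14 of 15 genes called higher and a median of 0.49 with quartiles of 0.41 and 0.54, and none of its genes passed 2-fold. chs-1, the chitin synthase of the eggshell, stood at 413, 447 and 447 CPM in the 1-day libraries and 838, 825 and 771 CPM in the 5-day libraries (log2 change 0.90, SE 0.04, edgeR adjusted p = 1.1e-12). cbd-1, a chitin-binding layer protein, stood at 2976, 3159 and 3106 CPM at 1 day and 4249.6, 4043 and 4144 CPM at 5 days (log2 change 0.43, SE 0.04, edgeR adjusted p = 1.4e-08), and cpg-2, a chondroitin proteoglycan of the shell, at 2562, 2555 and 2513 CPM at 1 day and 4091, 4370.1 and 4314 CPM at 5 days (log2 change 0.74, SE 0.04, edgeR adjusted p = 2.7e-12). All 5-day libraries were above all 1-day libraries for these genes.

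Among RNA-binding proteins and other regulators of oocytes and early embryos, 19 of 21 were called higher and none lower (median 0.28). With a stricter minimum of 100 counts in every library, which moved the log2 changes by a median of -0.13, 12 of them were higher and 1 lower (median 0.15). par-3, a polarity protein of the zygote, stood at 265, 254 and 249 CPM at 1 day and 512, 498 and 497 CPM at 5 days (log2 change 0.97, SE 0.04, edgeR adjusted p = 2.0e-14). lin-41, which keeps oocytes from maturing too early, had a log2 change of 0.90, puf-5 of 0.64, oma-2 of 0.50, and spn-4, with the highest level of the list, of 0.22 (edgeR adjusted p = 9.2e-13, 1.5e-11, 5.4e-10 and 6.8e-05). rme-2, the oocyte receptor for yolk, stood at 1028, 1076 and 1077 CPM at 1 day and 1461, 1452 and 1434 CPM at 5 days (log2 change 0.45, SE 0.04, edgeR adjusted p = 1.5e-09).

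Of the germ cell and P granule genes 15 of 20 were higher and 2 lower (median 0.46). glp-1, the Notch receptor that keeps germline stem cells dividing, stood at 215, 237 and 219 CPM in the 1-day libraries and 492, 481 and 442 CPM in the 5-day libraries (log2 change 1.08, SE 0.05, edgeR adjusted p = 2.6e-13). It was the single member of this list past 2-fold, and pgl-1, a P granule scaffold, rose by 0.43 on the log2 scale. The members called lower were car-1 (-0.17) and the helicase gene glh-1 (-0.16), both with small changes. gld-1, a translational repressor of the meiotic germline, was not called (log2 change 0.11, SE 0.04, edgeR adjusted p = 0.012), but DESeq2 and the fit with plain library sizes called it (adjusted p = 0.00049 and 0.0014), as did the fit with a replicate block (edgeR adjusted p = 0.007).

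Genes of the cell cycle and of chromosome behaviour rose in nearly all cases. Of 26 genes of the meiotic axis, synapsis and recombination, 24 were higher and none lower (median 0.41), with rec-8, the meiotic cohesin, at 87.4, 88 and 83.9 CPM at 1 day and 165, 154 and 155 CPM at 5 days (log2 change 0.87, SE 0.04, edgeR adjusted p = 1.4e-13). Of 21 DNA replication genes 18 were higher and none lower (median 0.32; 15 higher, 1 lower and a median of 0.197 with the stricter minimum), among them the helicase gene mcm-5 (0.48), the ligase gene lig-1 (0.58) and the licensing factor cdt-1 (0.58). Of 30 mitosis genes 28 were higher and none lower (median 0.40). sep-1, the separase that cuts cohesin, stood at 192, 206 and 195 CPM at 1 day and 329, 324.9 and 315 CPM at 5 days (log2 change 0.71, SE 0.04, edgeR adjusted p = 4.6e-12), and cdk-2, a kinase of S phase entry, at 17, 18.7 and 17.5 CPM at 1 day and 36.7, 36.9 and 32.8 CPM at 5 days (log2 change 0.997, SE 0.06, edgeR adjusted p = 1.0e-11). These lists differ little from one another in median, and 34.5% of all genes tested were called higher.

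Yolk genes, which are expressed in the intestine and taken up by oocytes, did not move as a group. vit-5 stood at 1995, 2151 and 2293 CPM in the 1-day libraries and 4977, 4537 and 5111 CPM in the 5-day libraries (log2 change 1.18, SE 0.07, edgeR adjusted p = 3.5e-11), and vit-1 at 3039, 3182 and 3186 CPM in the 1-day libraries and 679, 697 and 735 CPM in the 5-day libraries (log2 change -2.16, SE 0.09, edgeR adjusted p = 1.1e-13). These 2 genes thus moved in opposite directions with no overlap of the ages in either. vit-2 had a log2 change of -0.28, vit-3 of -0.9997 and vit-4 of -0.40 (edgeR adjusted p = 3.0e-04, 5.4e-10 and 6.7e-05, and DESeq2 adjusted p = 0.1 for vit-4), and vit-6, at 25077, 25318 and 25110.1 CPM at 1 day and 22921, 22001 and 25005 CPM at 5 days, was not called (log2 change -0.11, SE 0.07, edgeR adjusted p = 0.18). The sum over the 6 genes was 41940.1 to 42868 CPM at 1 day and 36315 to 41256 CPM at 5 days. vit-3, vit-4 and vit-5 are close copies, so the count of each single copy is uncertain. Reads shared between vit-1 and vit-2 were not checked, so their separate counts may be uncertain as well.

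Histone genes gave a mixed picture, with 29 tested of 79, 5 higher (17.2%) and 10 lower (34.5%). Over all genes tested 34.5% were higher and 34% lower. The core histone genes are near-identical copies. The linker histones were among those with more counts: hil-1 stood at 4.03, 4.38 and 4.71 CPM at 1 day and 29.7, 30.8 and 31.5 CPM at 5 days (log2 change 2.79, SE 0.07, edgeR adjusted p = 2.1e-17), and his-24, hil-2 and hil-3 had log2 changes of -1.50, -1.34 and -2.05 (edgeR adjusted p = 7.1e-14, 2.6e-15 and 3.8e-16). So linker histones went both ways. htz-1, the variant H2A.Z, had the highest level and a log2 change of 0.19.

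Every cytosolic ribosomal protein gene tested was lower at 5 days, 79 of 79, where 34% of all genes tested were. The range was narrow, -1.40 to -0.21, with quartiles of -0.85 and -0.64, and the summed level was 110999 to 122596 CPM at 1 day against 66267 to 75968 CPM at 5 days. rpl-3 stood at 3564, 4063 and 4066 CPM in the 1-day libraries and 2829, 2933 and 3012 CPM in the 5-day libraries (log2 change -0.41, SE 0.05, edgeR adjusted p = 3.2e-07). The SE of the list's members with high counts was small beside the change, and 3 members passed 2-fold.

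Those 3 members were rpl-37, rpl-11.2 and rpl-25.1. The last 2 have a paralog each with the same role in the ribosome. rpl-11.2 stood at 460.5, 468 and 489 CPM at 1 day and 162, 175 and 198 CPM at 5 days (log2 change -1.40, SE 0.06, edgeR adjusted p = 4.9e-14) and rpl-11.1 at 1374, 1568 and 1632 CPM at 1 day and 1001, 1088 and 1089.6 CPM at 5 days (log2 change -0.53, SE 0.06, edgeR adjusted p = 7.9e-08). rpl-25.1 had a log2 change of -1.28 and rpl-25.2 of -0.54. In both pairs the paralog with the lower counts fell further. Of the elongation factors, eef-1A.1 had a log2 change of -0.25 and eef-2 was not called (log2 change 0.028, SE 0.05, edgeR adjusted p = 0.61). Aminoacyl-tRNA synthetases had 10 higher (30.3%) and 8 lower (24.2%) of 33, where 34.5% and 34% of all genes tested were. Their median was 0.056, with rars-2 at 0.54 and pars-2 at -0.44 as examples.

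Genes of mitochondrial ATP production fell together. Of 28 named nuclear genes of respiratory complexes I to IV, 27 were lower (median -0.62), and all 10 ATP synthase genes were lower (median -0.65). atp-2, the catalytic beta subunit, stood at 2273, 2542 and 2469.9 CPM in the 1-day libraries and 1734, 1729 and 1701 CPM in the 5-day libraries (log2 change -0.50, SE 0.04, edgeR adjusted p = 4.4e-09). gas-1, a core subunit of complex I, stood at 136, 148 and 149 CPM at 1 day and 64.6, 70.1 and 68.2 CPM at 5 days (log2 change -1.09, SE 0.04, edgeR adjusted p = 4.2e-14), mev-1 of complex II had a log2 change of -0.90, isp-1, the iron-sulphur protein of complex III, of -0.62, and cco-2 of complex IV of -0.57 (edgeR adjusted p = 3.2e-13, 1.2e-10 and 2.6e-09). The member not called was sdha-2 (log2 change 0.025, SE 0.04, edgeR adjusted p = 0.58).

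Paralogs again moved by different amounts. asg-2 and asg-1 both encode subunit g of the ATP synthase, and asb-2 and asb-1 subunit b. asg-2 stood at 148, 154 and 163 CPM at 1 day and 51.9, 52.1 and 53.7 CPM at 5 days (log2 change -1.56, SE 0.04, edgeR adjusted p = 6.9e-17) and asg-1 at 210.3, 215 and 219 CPM at 1 day and 140.5, 165 and 162 CPM at 5 days (log2 change -0.47, SE 0.05, edgeR adjusted p = 2.9e-08). asb-2 had a log2 change of -1.18 and asb-1 of -0.24 (edgeR adjusted p = 4.9e-16 and 4.9e-05). The cytochrome c gene cyc-2.2 stood at 2.83, 3.65 and 4.04 CPM at 1 day and 0.0361, 0.0316 and 0.0643 CPM at 5 days (log2 change -6.23, SE 0.44, edgeR adjusted p = 2.2e-10), a fall without overlap of the ages.

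Of the 9 genes of mitochondrial DNA that passed, 7 were lower and 1 higher (median -0.42), and DESeq2 called 4 lower and 1 higher. The list took mitochondrial genes by number alone, so genes of ribosomal RNA were not set apart from genes of proteins. The single rise, of MTCE.7, can thus not be taken as a rise of a respiratory gene. MTCE.23 stood at 2164, 2164 and 2265 CPM at 1 day and 1972, 1820.1 and 1950.3 CPM at 5 days (log2 change -0.20, SE 0.04, edgeR adjusted p = 2.9e-04) and MTCE.34 at 81.7, 98.1 and 90.5 CPM at 1 day and 57.5, 43.7 and 21.7 CPM at 5 days (log2 change -1.15, SE 0.29, edgeR adjusted p = 0.0013, DESeq2 adjusted p = 0.036), while MTCE.7 rose by 0.96 on the log2 scale. The citric acid cycle had 15 of 18 genes lower (median -0.46). aco-1, the cytosolic aconitase, had a log2 change of -1.12, the mitochondrial aconitase aco-2 was not called (log2 change -0.08, SE 0.04, edgeR adjusted p = 0.088), and T22B11.5 (ogdh-1), of the oxoglutarate dehydrogenase, rose by 0.29.

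Glycolysis is the pathway that DOG enters and stalls. Of 18 of its genes tested, 12 were lower and 2 higher (median -0.29). Hexokinase makes the first step and also phosphorylates DOG. F14B4.2 (hxk-1) stood at 429, 426 and 422 CPM at 1 day and 510.2, 525 and 502 CPM at 5 days (log2 change 0.27, SE 0.04, edgeR adjusted p = 1.3e-06), H25P06.1 (hxk-2) was not called (log2 change 0.088, SE 0.04, edgeR adjusted p = 0.077), and Y77E11A.1 (hxk-3) had a log2 change of 0.12, whose call was lost without 1-day replicate 1 or 3 or 5-day replicate 2 (edgeR adjusted p = 0.015, 0.022 and 0.032). None of the 3 hexokinases was called lower. The next steps had log2 changes of -0.29 for gpi-1, -0.65 for the phosphofructokinase gene Y71H10A.1 (pfk-1.1), -1.47 and -0.19 for the aldolases aldo-1 and aldo-2, and -0.93 for the dehydrogenase gpd-3 (edgeR adjusted p = 1.1e-06, 3.3e-12, 1.5e-15, 1.4e-04 and 2.8e-11). The lower steps had -0.28 for pgk-1, -0.19 for enol-1, -0.29 and -0.86 for the pyruvate kinases pyk-1 and pyk-2, and -1.001 for ldh-1, lactate dehydrogenase (edgeR adjusted p = 1.7e-06, 1.7e-04, 2.2e-07, 5.7e-11 and 1.4e-14). aldo-1 stood at 118, 116 and 126 CPM at 1 day and 43.2, 43.8 and 43.4 CPM at 5 days and ldh-1 at 121.6, 125 and 129.9 CPM at 1 day and 63.8, 62.4 and 62.1 CPM at 5 days, with no overlap of the ages. tpi-1 and gpd-1 were not called (-0.084 and 0.026).

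Genes of glucose and trehalose synthesis and the glyoxylate cycle had 6 higher and 2 lower of 14, and 3 higher and 4 lower of 13 with the stricter minimum. gei-7, the bifunctional glyoxylate cycle enzyme, stood at 271, 283 and 295 CPM at 1 day and 458, 485 and 491 CPM at 5 days (log2 change 0.76, SE 0.05, edgeR adjusted p = 2.5e-11), and tps-1, a trehalose synthase, at 23.4, 23.6 and 24.6 CPM at 1 day and 40.7, 36.9 and 37.7 CPM at 5 days (log2 change 0.68, SE 0.05, edgeR adjusted p = 7.0e-10). fbp-1 had a log2 change of -0.19. The entry named icl-1, a row separate from gei-7, had -0.12, with a call that was lost in 5 of the 6 fits that left out a library. Whether that entry encodes a glyoxylate cycle enzyme was not checked, and it is counted among the 14. The proton pump V-ATPase, which acidifies lysosomes and secretes acid from epithelia, had 17 lower and 4 higher of 21. vha-5, a membrane subunit used in the epidermis and excretory cell, stood at 155, 163 and 161 CPM at 1 day and 52, 50.6 and 48.5 CPM at 5 days (log2 change -1.66, SE 0.04, edgeR adjusted p = 9.2e-17), vha-6, the intestinal subunit of the same kind, had a log2 change of -0.94, and unc-32 and vha-7, the other members of that subunit family, rose by 0.30 and 0.74 (edgeR adjusted p = 1.2e-11, 4.1e-07 and 2.9e-12). The 4 subunit a genes thus split into 2 that fell and 2 that rose.

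The intestine list had 12 lower and 4 higher of 18 (median -1.05). Genes that build the brush border were among the falls. act-5, the actin of intestinal microvilli, stood at 459.8, 491 and 486 CPM in the 1-day libraries and 92.5, 92.3 and 89.1 CPM in the 5-day libraries (log2 change -2.39, SE 0.04, edgeR adjusted p = 9.4e-19). pept-1, the peptide transporter of the gut lumen, stood at 101, 101 and 97.9 CPM at 1 day and 12.58, 12.59 and 12.9 CPM at 5 days (log2 change -2.98, SE 0.08, edgeR adjusted p = 1.7e-16), and the intermediate filament genes ifb-2 and ifc-2 had log2 changes of -1.89 and -1.63 (edgeR adjusted p = 9.7e-16 and 2.6e-15). elt-2, the main GATA factor of the intestine, stood at 10.4, 10.1 and 10.4 CPM at 1 day and 4.36, 4.59 and 4.82 CPM at 5 days (log2 change -1.16, SE 0.09, edgeR adjusted p = 6.3e-10), and elt-7 was not called (log2 change -0.16, SE 0.11, edgeR adjusted p = 0.22). Against these, ges-1, the gut esterase, rose by 0.49, pgp-1, an efflux pump, by 1.29, and cpr-1, a cathepsin B protease, by 0.54 (edgeR adjusted p = 8.9e-06, 2.6e-09 and 6.5e-05). Of 12 digestive proteases 6 were higher (50%) and 4 lower (33.3%), where 34.5% and 34% of all genes tested were. asp-1 stood at 2964, 2722 and 2869.6 CPM at 1 day and 1152, 1249 and 1414 CPM at 5 days (log2 change -1.17, SE 0.06, edgeR adjusted p = 1.5e-12), cpr-5 at 251, 239 and 258 CPM at 1 day and 52.6, 52.5 and 57.1 CPM at 5 days (log2 change -2.205, SE 0.06, edgeR adjusted p = 2.2e-16) and cpr-4 at 162, 149 and 162 CPM at 1 day and 334, 373 and 381 CPM at 5 days (log2 change 1.202, SE 0.06, edgeR adjusted p = 2.8e-12).

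Lysozymes, enzymes that cut bacterial cell walls, were all called, 8 of the 12 tested higher and 4 lower (median 1.19). lys-7 stood at 99.9, 92.2 and 99.98 CPM in the 1-day libraries and 739, 816 and 873 CPM in the 5-day libraries (log2 change 3.06, SE 0.06, edgeR adjusted p = 2.9e-18), an 8.31-fold rise. lys-2 stood at 17.3, 18.6 and 21.3 CPM at 1 day and 247, 263 and 251 CPM at 5 days (log2 change 3.72, SE 0.07, edgeR adjusted p = 1.8e-18) and lys-1 at 194, 203 and 218 CPM at 1 day and 455, 488 and 505 CPM at 5 days (log2 change 1.24, SE 0.07, edgeR adjusted p = 6.3e-12). lys-4 went the opposite way and stood at 225, 228 and 245 CPM in the 1-day libraries and 17, 19.8 and 18.6 CPM in the 5-day libraries (log2 change -3.65, SE 0.10, edgeR adjusted p = 2.7e-16). In each of these genes the ages were separate. Of the invertebrate-type lysozymes, ilys-5, with the highest level, had a log2 change of -0.71 and ilys-3 of 4.78 from a mean of 0.11 CPM (edgeR adjusted p = 6.4e-06 and 4.0e-11). The call of ilys-5 was not made by DESeq2 (adjusted p = 0.17).

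Caenopores and antimicrobial peptides had 28 higher (50%) and 19 lower (33.9%) of 56 tested, of 90, with values from -3.14 to 8.29. The share lower was near the 34% of all genes tested, and the share higher was above their 34.5%. spp-5, a pore-forming caenopore with the highest level, had a log2 change of 0.25 (edgeR adjusted p = 0.0027), lost without 1-day replicate 1 or 5-day replicate 2 or 3 (edgeR adjusted p = 0.019, 0.015 and 0.012). spp-12 stood at 0.257, 0.183 and 0.36 CPM at 1 day and 10.7, 11.6 and 12.2 CPM at 5 days (log2 change 5.38, SE 0.16, edgeR adjusted p = 5.9e-16) and cnc-6 at 0.171, 0.0609 and 0.0772 CPM at 1 day and 5.37, 4.84 and 5.11 CPM at 5 days (log2 change 5.70, SE 0.27, edgeR adjusted p = 9.2e-13), while fipr-21 stood at 78.6, 78.4 and 82.6 CPM at 1 day and 12.8, 15.1 and 14.3 CPM at 5 days (log2 change -2.50, SE 0.06, edgeR adjusted p = 3.7e-17). Both directions thus occurred among secreted peptides of this kind. C-type lectins had shares near the background, with 34 higher and 37 lower of 113 tested. clec-87, with the highest level, had a log2 change of 0.39, clec-190 rose by 3.38, and clec-51 had -2.66 (edgeR adjusted p = 7.8e-08, 1.2e-17 and 3.1e-12).

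Cytochrome P450 enzymes add oxygen to lipids and foreign compounds, and 32 of 67 were higher and 10 lower (median 0.46). 23 were at least 2-fold higher, where 7.36% of all genes tested were. With the stricter minimum of 100 counts in every library 22 were left, 7 higher and 5 lower (median 0.076). cyp-14A3 stood at 0.986, 0.913 and 0.849 CPM in the 1-day libraries and 21.7, 20.9 and 21.6 CPM in the 5-day libraries (log2 change 4.56, SE 0.13, edgeR adjusted p = 3.0e-16) and cyp-34A2 at 0.429, 0.548 and 1.08 CPM at 1 day and 15.2, 15.8 and 16.1 CPM at 5 days (log2 change 4.41, SE 0.16, edgeR adjusted p = 1.4e-14). cyp-35C1, with the highest level, was not called (log2 change -0.15, SE 0.09, edgeR adjusted p = 0.15), and cyp-13A2 and cyp-35A5 fell, with log2 changes of -1.68 and -1.21 (edgeR adjusted p = 1.6e-11 and 2.6e-11).

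Conjugating enzymes moved more often down. UDP-glucuronosyltransferases, which attach sugars to foreign compounds, had 33 lower and 13 higher of 63 (median -0.42), and glutathione S-transferases 24 lower and 6 higher of 42 (median -0.60). ugt-47 stood at 59.5, 62.7 and 67.7 CPM at 1 day and 10.4, 12.2 and 10.9 CPM at 5 days (log2 change -2.50, SE 0.07, edgeR adjusted p = 5.6e-16), ugt-25 at 15.6, 17.3 and 20.2 CPM at 1 day and 71.5, 65.7 and 67.1 CPM at 5 days (log2 change 1.92, SE 0.07, edgeR adjusted p = 3.9e-14) and gst-26 at 47.6, 49.3 and 53.6 CPM at 1 day and 11.8, 12.56 and 11.6 CPM at 5 days (log2 change -2.07, SE 0.06, edgeR adjusted p = 9.7e-16). gst-1, with the highest level of its family, was not called (log2 change -0.08, SE 0.04, edgeR adjusted p = 0.087), and gst-4, a widely used reporter of oxidative stress, had a log2 change of -0.65 (edgeR adjusted p = 1.1e-07). Of 30 short-chain dehydrogenases 10 were higher (33.3%) and 16 lower (53.3%), where 34.5% and 34% of all genes tested were. dhs-26 stood at 2.61, 2.13 and 2.39 CPM in the 1-day libraries and 99.5, 101 and 101 CPM in the 5-day libraries (log2 change 5.41, SE 0.09, edgeR adjusted p = 3.9e-19), a 42.6-fold rise, and dhs-25 at 142, 139 and 130.03 CPM at 1 day and 29.1, 27.9 and 29.4 CPM at 5 days (log2 change -2.25, SE 0.05, edgeR adjusted p = 2.7e-18).

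Enzymes that remove superoxide and peroxide had 8 lower and 4 higher of 16. Without 5-day replicate 3 the list had 7 lower and 2 higher, and with the stricter minimum 7 lower and 1 higher of 11. sod-1, sod-2 and sod-3 are superoxide dismutases of the cytosol and of mitochondria, with log2 changes of -0.24, -0.40 and -1.26 (edgeR adjusted p = 3.9e-06, 6.0e-08 and 1.1e-09). The catalase ctl-2 was not called (log2 change 0.017, SE 0.07, edgeR adjusted p = 0.84) and the catalase ctl-3 rose by 1.48. prdx-2, a peroxiredoxin with the highest level of the list, had a log2 change of -0.28.

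Insulin signalling restrains the FOXO factor DAF-16, and genes linked to that pathway were mostly higher. The list holds pathway members and targets, and 17 of 22 were higher (77.3%) and 4 lower (18.2%), with a median of 0.76. Over all genes tested 34.5% were higher and 34% lower. The list was not split by whether DAF-16 induces or represses a gene, so its counts do not measure the activity of the factor. It also holds gei-7 and icl-1 as separate rows. daf-2, the insulin receptor, stood at 62.1, 70.1 and 64.4 CPM in the 1-day libraries and 202, 205 and 188 CPM in the 5-day libraries (log2 change 1.59, SE 0.05, edgeR adjusted p = 4.5e-16). daf-18, the phosphatase that opposes the pathway, rose by 0.94, akt-2 by 1.19, pdk-1 by 0.76 and daf-16 itself by 0.31 (edgeR adjusted p = 7.2e-14, 6.9e-12, 2.0e-09 and 1.2e-06). Thus members that act on either side of the factor rose. Among the targets, the metallothionein gene mtl-1 stood at 2.53, 2.19 and 2.08 CPM at 1 day and 61.9, 63 and 70.9 CPM at 5 days (log2 change 4.87, SE 0.13, edgeR adjusted p = 1.5e-16) and dod-3 at 1.63, 0.883 and 1.29 CPM at 1 day and 23.9, 33.8 and 31.4 CPM at 5 days (log2 change 4.59, SE 0.16, edgeR adjusted p = 1.2e-14). sod-3 went down, at 10.5, 9.89 and 10.8 CPM at 1 day and 4.47, 3.99 and 4.54 CPM at 5 days (log2 change -1.26, SE 0.10, edgeR adjusted p = 1.1e-09).

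Insulin-like peptides are the ligands of DAF-2, and of 28 tested of 40, 14 were lower and 6 higher. ins-19 stood at 0.9, 0.335 and 1.08 CPM at 1 day and 42.5, 46.3 and 44.2 CPM at 5 days (log2 change 5.83, SE 0.13, edgeR adjusted p = 1.6e-17) and daf-28 at 9.77, 7.33 and 7.26 CPM at 1 day and 2.06, 3.13 and 2.73 CPM at 5 days (log2 change -1.59, SE 0.15, edgeR adjusted p = 1.1e-08). ins-33 had a log2 change of -3.15 and ins-7 of 1.45, both at means under 4 CPM. Of the metal-binding and metal transport genes, ftn-1, the intestinal ferritin, stood at 1.84, 1.92 and 2.24 CPM in the 1-day libraries and 83.8, 99.2 and 95.7 CPM in the 5-day libraries (log2 change 5.52, SE 0.09, edgeR adjusted p = 3.1e-19), and ftn-2, the other ferritin, at 182, 199.8 and 205 CPM at 1 day and 149, 157 and 160.2 CPM at 5 days (log2 change -0.33, SE 0.05, edgeR adjusted p = 6.6e-06). The ferritins moved in opposite directions. mtl-2 was not called (log2 change -0.12, SE 0.06, edgeR adjusted p = 0.061), smf-1 rose by 0.58 and smf-3 had a log2 change of -0.69, not called without 5-day replicate 3.

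Of 14 desaturases and elongases 6 were higher and 6 lower. fat-2, a delta-12 desaturase, stood at 454, 449.95 and 473 CPM at 1 day and 1125, 1139 and 1143 CPM at 5 days (log2 change 1.31, SE 0.05, edgeR adjusted p = 1.1e-14), and fat-1, fat-3, fat-4 and fat-5 rose by 0.71, 0.74, 0.36 and 0.38 (edgeR adjusted p = 3.4e-12, 1.5e-11, 7.1e-08 and 3.5e-05). Desaturases made up 6 of these genes, of which 5 were higher and fat-6 was not called (log2 change 0.13, SE 0.05, edgeR adjusted p = 0.017), though it was without 1-day replicate 1 or 5-day replicate 1 and by DESeq2 (adjusted p = 0.0047, 0.0061 and 0.0091). Of the 8 elongases 6 were lower and 1 higher, elo-4 (0.39, edgeR adjusted p = 0.0049), whose call held in 1 of the 6 fits that left out a library, and elo-8 was not called (-0.29). elo-2 stood at 234, 232 and 225 CPM at 1 day and 64.9, 64.2 and 69 CPM at 5 days (log2 change -1.80, SE 0.04, edgeR adjusted p = 2.8e-17), and elo-1, elo-5 and elo-6 had log2 changes of -0.92, -1.30 and -0.89 (edgeR adjusted p = 1.5e-14, 1.1e-11 and 1.0e-10). Lipid-binding proteins, which carry fatty acids, had 8 lower and 1 higher of 9 (median -1.27). With plain library sizes 6 of them were lower, and 6 to 8 were in the fits that left out a library. lbp-6 stood at 291, 331 and 339 CPM at 1 day and 81, 87.2 and 85.4 CPM at 5 days (log2 change -1.92, SE 0.05, edgeR adjusted p = 1.4e-16), and the exception, lbp-8, at 3.9, 2.8 and 3.52 CPM at 1 day and 9.16, 8.35 and 8.75 CPM at 5 days (log2 change 1.37, SE 0.11, edgeR adjusted p = 1.6e-09).

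In fatty acid activation and oxidation 28 genes were lower and 11 higher of 51. acdh-9, an acyl-CoA dehydrogenase, stood at 113, 111.8 and 116 CPM at 1 day and 19.3, 19.9 and 18 CPM at 5 days (log2 change -2.57, SE 0.05, edgeR adjusted p = 7.3e-19), and acs-2, a fasting-induced acyl-CoA synthetase, at 41.1, 41.2 and 42 CPM at 1 day and 99.1, 104.1 and 96.4 CPM at 5 days (log2 change 1.27, SE 0.05, edgeR adjusted p = 1.5e-13). Lipases had 9 higher and 5 lower of 21, but 10 and 3 without 1-day replicate 3 and 6 and 5 without 1-day replicate 2. The lysosomal lipase genes lipl-1 and lipl-2 rose by 3.24 and 4.31, from means of 2.33 and 0.766 CPM, and lipl-5, with the highest level, was not called (log2 change 0.035, SE 0.09, edgeR adjusted p = 0.74).

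Autophagy genes, which build the vesicles that carry cell contents to lysosomes, rose in 23 of 26 cases, with 1 lower and a median of 0.48 (0.29 with the stricter minimum). atg-9, a membrane protein of the forming vesicle, stood at 40.2, 33.9 and 33.9 CPM in the 1-day libraries and 85.8, 91.9 and 84.6 CPM in the 5-day libraries (log2 change 1.29, SE 0.05, edgeR adjusted p = 9.7e-14). T12G3.1 (sqst-1), the p62 homologue that brings cargo to the vesicle, stood at 34.8, 37.5 and 38 CPM at 1 day and 79.3, 75.3 and 73.9 CPM at 5 days (log2 change 1.05, SE 0.04, edgeR adjusted p = 1.0e-13). bec-1, unc-51 and lgg-1, of the initiation complexes and the vesicle coat, rose by 0.81, 0.58 and 0.24 (edgeR adjusted p = 1.3e-12, 1.0e-09 and 6.6e-06). The gene called lower was hlh-30, the TFEB factor of autophagy and lysosome genes, at 40.8, 37.3 and 39 CPM at 1 day and 30.5, 32 and 31.9 CPM at 5 days (log2 change -0.31, SE 0.04, edgeR adjusted p = 4.9e-06).

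The proteasome moved little, with 13 lower and 6 higher of 32 and values from -0.54 to 0.34. The rises named by size were of the regulatory particle, rpn-5 (0.34), rpn-2 (0.32) and rpn-1 (0.25), and the falls of the core particle, pas-5 (-0.54), pbs-5 (-0.38) and pas-2 (-0.37), all 6 with no overlap of the ages. The cytosolic chaperonin, which folds actin and tubulin, had 5 lower and 1 higher of 8 (cct-5 -0.34, cct-6 0.25). hsp-1, the constitutive HSP70, stood at 3547, 4106 and 3976 CPM at 1 day and 2874, 2839 and 2936 CPM at 5 days (log2 change -0.43, SE 0.05, edgeR adjusted p = 2.0e-07), and the inducible hsp-70 at 0.429, 0.274 and 0.463 CPM at 1 day and 4.76, 5.38 and 4.54 CPM at 5 days (log2 change 3.64, SE 0.18, edgeR adjusted p = 1.5e-12). The list of cytosolic HSP70, HSP90, HSP110 and co-chaperones had 3 higher (25%) and 4 lower (33.3%) of 12. Over all genes tested 34.5% were higher and 34% lower. The small heat shock proteins had 4 higher and 5 lower of 10, but 3 higher with DESeq2, with a replicate block and without any 1 library. sip-1, a small heat shock protein of oocytes and embryos, stood at 1677, 1795 and 1813 CPM at 1 day and 2719.8, 3257 and 3464 CPM at 5 days (log2 change 0.84, SE 0.06, edgeR adjusted p = 6.8e-10), and hsp-12.2 at 32.9, 31.6 and 34.6 CPM at 1 day and 4.15, 5.28 and 5.47 CPM at 5 days (log2 change -2.73, SE 0.09, edgeR adjusted p = 2.0e-15).

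Chaperones of the endoplasmic reticulum had 10 lower and 5 higher of 16. pdi-2, the isomerase that is also part of the collagen-modifying prolyl hydroxylase, stood at 965, 929 and 943 CPM in the 1-day libraries and 449, 450.1 and 462 CPM in the 5-day libraries (log2 change -1.06, SE 0.04, edgeR adjusted p = 4.5e-15), and hsp-3, a BiP chaperone, at 805, 806 and 798 CPM at 1 day and 461, 449 and 448 CPM at 5 days (log2 change -0.83, SE 0.03, edgeR adjusted p = 1.3e-13). The sensors of unfolded proteins went up while these chaperones went down: ire-1 rose by 0.59, pek-1 by 0.49 and atf-6 by 0.52 (edgeR adjusted p = 1.8e-11, 3.7e-08 and 1.4e-07). Mitochondrial chaperones had 5 lower and 2 higher of 9 (1 higher without 1-day replicate 1 or 3 or 5-day replicate 1 or 3), with hsp-60 at -0.40 and hsp-6 not called (log2 change 0.075, SE 0.04, edgeR adjusted p = 0.098).

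F-box proteins choose the targets of ubiquitin ligases and form one of the largest families of the worm. Of 255 tested of 355, 130 were higher, 102 of them at least 2-fold where 7.36% of all genes tested were, and 29 lower (median 0.68). Few had many counts, as 49 of the tested members held 100 or more counts in every library of at least one age, and many are similar in sequence. With the stricter minimum of 100 counts in every library 32 were left, 21 higher and 9 lower (median 0.24). fbxa-215, with the highest level, stood at 254, 255 and 259 CPM at 1 day and 336, 329 and 326 CPM at 5 days (log2 change 0.37, SE 0.03, edgeR adjusted p = 1.6e-08). fbxb-41 stood at 0.471, 0.548 and 0.437 CPM at 1 day and 4.62, 3.86 and 4.66 CPM at 5 days (log2 change 3.17, SE 0.16, edgeR adjusted p = 2.6e-12), and fbxa-72, one of the falls, at 29.5, 33.2 and 34.1 CPM at 1 day and 6.45, 6.2 and 5.69 CPM at 5 days (log2 change -2.41, SE 0.08, edgeR adjusted p = 3.6e-15). The math and bath families, also adaptors of ubiquitin ligases, had 26 higher and 13 lower of 60, with bath-42, of the highest level, at 0.58 (edgeR adjusted p = 4.4e-11).

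Genes of synapses and neuropeptides were mostly lower. Of 24 genes of transmitter synthesis and release, 16 were lower and 1 higher (median -0.52), and of 62 neuropeptide precursors 46 were lower and 3 higher (median -0.73). cha-1, which makes acetylcholine, stood at 6.13, 4.93 and 5.56 CPM at 1 day and 2.45, 1.77 and 1.99 CPM at 5 days (log2 change -1.42, SE 0.13, edgeR adjusted p = 1.2e-08), unc-25, which makes GABA, at 10.9, 11.2 and 12 CPM at 1 day and 5.88, 5.38 and 6.72 CPM at 5 days (log2 change -0.93, SE 0.09, edgeR adjusted p = 3.9e-08), and rab-3, a synaptic vesicle GTPase, at 7.8, 7.3 and 7.36 CPM at 1 day and 4.18, 2.94 and 3.57 CPM at 5 days (log2 change -1.07, SE 0.11, edgeR adjusted p = 3.8e-08). The syntaxin unc-64 and the kinesin unc-104 were not called (-0.059 and -0.093). snb-1, the synaptobrevin, had the highest level of the list and rose by 0.30 (edgeR adjusted p = 6.1e-07).

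Among neuropeptides nlp-24 stood at 45.9, 49 and 46.4 CPM at 1 day and 1.84, 2.12 and 2.61 CPM at 5 days (log2 change -4.42, SE 0.11, edgeR adjusted p = 9.6e-17) and flp-33 at 4.59, 4.02 and 4.04 CPM at 1 day and 0.793, 0.823 and 0.933 CPM at 5 days (log2 change -2.29, SE 0.18, edgeR adjusted p = 9.6e-10). nlp-40, an intestinal peptide with the highest level, was not called (log2 change -0.008, SE 0.04, edgeR adjusted p = 0.86), and nlp-39 went from 2, 1 and 5 counts at 1 day to 387, 439 and 512 at 5 days (log2 change 7.40, SE 0.22, edgeR adjusted p = 9.0e-16). Of 28 genes of ciliated sensory neurons 7 (25%) were higher, a share below the 34.5% of all genes tested, none were lower and 21 were not called. Without 5-day replicate 1 the list had 6 higher and 1 lower. Touch receptor tubulins, the alpha tubulin mec-12 and the beta tubulin mec-7, had log2 changes of -1.56 and -1.53, and the tubulin list as a whole had 6 lower and 2 higher of 15, with tbb-2, a main beta tubulin of embryos and germline, not called (log2 change 0.08, SE 0.04, edgeR adjusted p = 0.092). Chemoreceptor genes passed the count minimum in 86 of 1336 cases, with 19 higher (22.1%) and 16 lower (18.6%). Both shares were below the 34.5% and 34% of all genes tested. sri-40 stood at 18.1, 18.9 and 17.9 CPM at 1 day and 0.18, 0.158 and 0.225 CPM at 5 days (log2 change -6.58, SE 0.15, edgeR adjusted p = 1.6e-17).

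Nuclear hormone receptors had 62 lower (32.1%) and 27 higher (14%) of 193 tested, where 34% and 34.5% of all genes tested were. Their median was -0.15, and most of these receptors were not called. nhr-114 stood out within them, at 257, 212 and 210.2 CPM in the 1-day libraries and 12.7, 13.9 and 13.7 CPM in the 5-day libraries (log2 change -4.07, SE 0.07, edgeR adjusted p = 7.3e-19), and nhr-68, a receptor of the propionate pathway, had a log2 change of -1.30 (edgeR adjusted p = 2.5e-12). nhr-49, a regulator of fat use with the highest level, rose by 0.30. Homeobox genes of the ceh series had 9 higher and 9 lower of 34, 26.5% each way and below the shares of all genes tested. They were led by ceh-91, at 29.9, 31 and 29.998 CPM at 1 day and 83.8, 83.6 and 87.1 CPM at 5 days (log2 change 1.49, SE 0.04, edgeR adjusted p = 1.8e-16). Transthyretin-related genes had 25 lower and 11 higher of 47, with ttr-14 at 42.3, 44.9 and 51.9 CPM at 1 day and 5.44, 4.33 and 4.25 CPM at 5 days (log2 change -3.32, SE 0.10, edgeR adjusted p = 4.8e-16) and ttr-51 at 16.8, 15.9 and 18.4 CPM at 1 day and 55.7, 56.3 and 55.9 CPM at 5 days (log2 change 1.71, SE 0.06, edgeR adjusted p = 5.5e-15).

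Markers of offspring and of other tissues were checked, since embryos are held inside the worms and larvae could escape washing. The zygotic genes of early embryos had 4 higher (36.4%) and 5 lower (45.5%) of 11 tested, and their sum was 27.8 to 33.8 CPM at 1 day and 23.2 to 29.7 CPM at 5 days. vet-6 held 1691 counts over the 1-day libraries and 751 over the 5-day libraries, and sdz-28 held 99 and 753. The sum thus mixes large moves in opposite directions and is no measure of embryo content. The endoderm gene end-1 stood at 0.557, 0.883 and 0.489 CPM at 1 day and 0.108, 0.0316 and 0.0965 CPM at 5 days (log2 change -3.003, SE 0.44, edgeR adjusted p = 4.7e-06), ceh-51 had a log2 change of -3.01, and tbx-38 of 1.76. The genes of molting larvae had 4 higher and 6 lower of 15, and their sum was 150.1 to 156 CPM at 1 day and 99.2 to 114 CPM at 5 days. mlt-10, which is expressed at molts, had 12.8, 10.7 and 14 CPM at 1 day and 6.42, 7.28 and 7.78 CPM at 5 days. Of the embryo list, hlh-1 had no count at either age and med-1 and tbx-35 had none at 5 days, and no member of the larval list was without counts at either age. A row without counts at both ages, as that of hlh-1, may have lost its reads in the counting, so it is not taken as absence of the RNA. The part of embryos and larvae in the changes of other lists was not tested. The gonad sheath and spermatheca list had 4 higher (33.3%) and 5 lower (41.7%) of 12, where 34.5% and 34% of all genes tested were. fln-1, the filamin of the spermatheca, rose by 0.55 and sth-1, a spermathecal gene, had a log2 change of -2.03 (edgeR adjusted p = 1.0e-10 and 5.6e-09). The scavenger cells called coelomocytes had too few genes to describe, with cup-5 higher (0.54) and cup-4 and lgc-26 lower (-0.65 and -0.69). Of the remaining small lists, mitochondrial ribosomal proteins were represented by mrpl-41 (-0.55) and mrps-5, which was called lower only without 1-day replicate 1 and with the stricter minimum (-0.082).

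**Figure D4:**
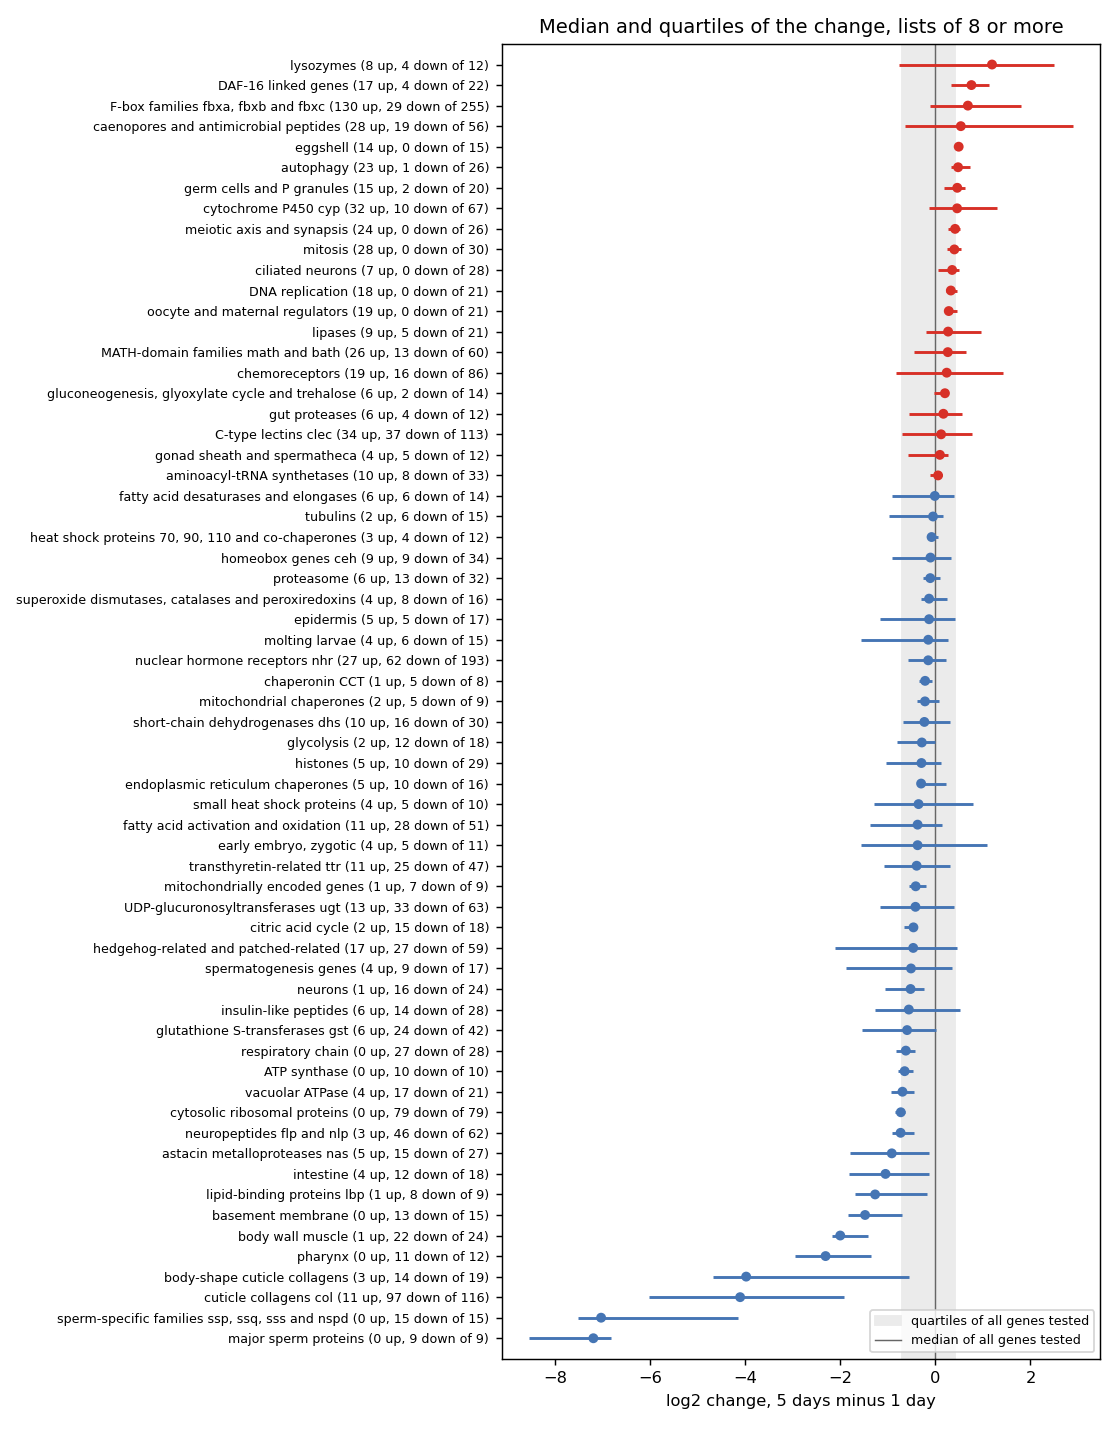
Median (point) and quartiles (line) of the log2 change from 1 to 5 days (x axis) for each list with 8 or more members tested (y axis, with the members called higher and lower of those tested). The grey band spans the quartiles of all genes tested, -0.70 and 0.42, and the vertical line their median. The 2 sperm families, the 2 collagen lists, pharynx, body wall muscle, basement membrane, lipid-binding proteins, intestine, astacins, neuropeptides and cytosolic ribosomal proteins have medians below the band to the left, and lysozymes have the median furthest to the right.

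The largest changes over all genes were sought among the 7339 genes (49.7%) that were called, had separate ages and held 100 or more counts in each library at their higher age. They were led by collagens on the side of the falls. The 10 largest falls held 8 col genes, rol-1 and Y47D7A.15, to which no gene name is given. Y47D7A.15 held 266, 419 and 563 counts at 1 day and none at 5 days, at least 396-fold lower. rol-1, named for the rolling movement of its mutants, held 749, 1035 and 1791 counts at 1 day and 0, 4 and 0 at 5 days (log2 change -9.60, SE 0.33, edgeR adjusted p = 8.2e-14), and col-133 held 1692, 2634 and 3332 and 0, 5 and 5 (log2 change -9.45, SE 0.18, edgeR adjusted p = 1.2e-18). The 10 largest rises started from a few counts. F56D6.9, to which no gene name is given, held 2, 0 and 3 counts at 1 day and 879, 1170 and 1246 at 5 days (log2 change 9.35, SE 0.21, edgeR adjusted p = 1.6e-17), and dct-8 held 2, 0 and 3 and 843, 1138 and 1068 (log2 change 9.24, SE 0.20, edgeR adjusted p = 6.0e-18). F56D6.8, neighbouring in name, held 4, 0 and 5 and 1234, 1443 and 1640. spp-9, a saposin-like protein gene, held 1, 0 and 0 and 121, 138 and 128 counts, a ratio of 407-fold (95% exact counting interval 72.6 to 16108), and scl-20, of the family of secreted SCP proteins, 2, 0 and 0 and 315, 382 and 426, a ratio of 590.2-fold (95% exact counting interval 163 to 4879.5). The remaining ones were col-183, nlp-39, C54C8.12, H39E23.3 and F15B9.6, with log2 changes of 8.68, 7.40, 7.82, 7.53 and 6.25.

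The direction differed by chromosome as listed with the counts. Of 2146 genes tested on the X chromosome 407 (19%) were higher and 1001 (46.6%) lower, with a median of -0.37. On the 5 autosomes 31.6 to 42% of genes were higher and 27.3 to 34.8% lower, with medians from -0.044 to 0.095.

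The later ages, which share the 5-day libraries with this comparison, show what became of these levels. The collagens had a median of -1.21 between 5 and 10 days beside -4.11 between 1 and 5 days, and col-19 stood at 16.7 CPM at 10 days and 14 CPM at 20 days. Body wall muscle genes had medians of -2.003, -0.37 and 0.18 over the 3 intervals up to 20 days, and pharyngeal genes -2.31, 0.31 and 0.23. unc-54 stood at 249 CPM at 10 days and 139.5 CPM at 20 days, and myo-2 at 62.8 CPM at 10 days and 77.4 CPM at 20 days, so that the pharyngeal myosin was above its 5-day mean of 33.5 CPM and below its 1-day mean of 184 CPM.

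Eggshell genes had medians of 0.49, -0.30 and -0.088, and mitosis genes 0.40, 0.0088 and -0.17. Yolk genes had -0.34, -1.26 and -3.53, so their lower levels came after 5 days for the most part, with vit-2 at 10937 CPM at 1 day, 8979 CPM at 5 days, 5363 CPM at 10 days and 1829 CPM at 20 days. Lysozymes had 1.19, -0.19 and -3.09. lys-2 stood at 27.1 CPM at 10 days and 0.63 CPM at 20 days and lys-7 at 877 CPM at 10 days and 139 CPM at 20 days, while ilys-3 reached 53.6 CPM at 10 days. Chaperones of the endoplasmic reticulum had -0.30, 0.34 and 0.25, with pdi-2 back at 788 CPM at 10 days. Autophagy genes had 0.48, 0.30 and 0.046, and T12G3.1 stood at 132 CPM at 10 days and 369.6 CPM at 20 days. The differences between these intervals were not tested.

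**Figure D5:**
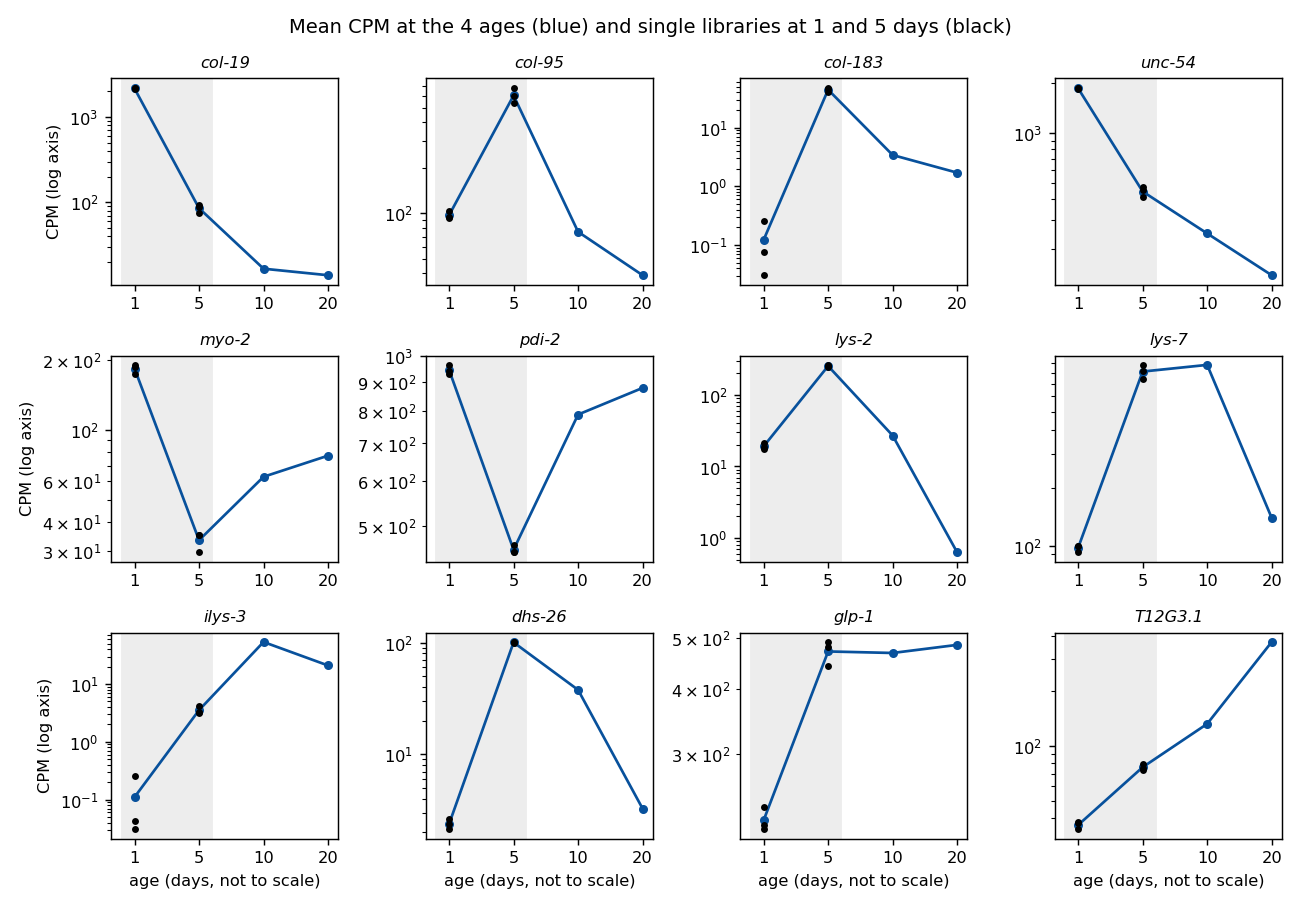
Mean CPM on a log axis (y) of 12 genes at 1, 5, 10 and 20 days (x, not to scale), with n = 3 libraries per age and n = 2 at 20 days, and black points for the single libraries at 1 and 5 days, the interval shaded grey. col-19 and unc-54 have a lower mean at each later age, col-95, col-183, lys-2 and dhs-26 peak at 5 days, pdi-2 and myo-2 have their lowest mean at 5 days, and T12G3.1 has a higher mean at each later age.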

How the data were processed

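Libraries (TruSeq) were read as single 50-base ends. Per the study's methods and the submitters' processing notes, the authors mapped reads with TopHat 1.4.1 to genome WS220 and the deposited values are raw counts per gene from htseq-count (union mode, where a read over several genes is not counted). HTSeq's version and strand setting are not given in the sources used here. The file gives counts only, with no normalization and no pooling.

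The quasi-likelihood test of edgeR 4.0.16 was run in R 4.3.3 with TMM factors, all 4 ages in one fit without covariates, on 14773 of 45461 genes with at least 100 counts over the libraries. p-values were adjusted by Benjamini-Hochberg over all of these and called at 0.01. SE is the log2 change divided by the root of the F statistic. The biological coefficient of variation was 4.14%. rRNA took 1.12 to 3.03% of counts. The test was run on simulated data with few changed genes, equally many up and down, and a constant dispersion. That run does not cover the scaling or the replicate structure of the real data. Python 3.11.15 served for the tables.

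Of each of 67 lists the text names the member of highest mean CPM and up to 3 largest rises and falls among called genes whose ages do not overlap and whose higher age holds 100 counts in each library, lists of 8 or fewer genes in full, and the 10 largest rises and falls over all genes. Other genes are named for their known role, chosen after their values were seen. Lists and members were chosen with earlier results of these data known. 50 list names were matched through newer symbols of WBcel235. Since that build differs from WS220, no coordinates are given. Alternatives were DESeq2 1.42.0, plain library sizes, other count minimums, the 6 libraries alone, a replicate block, a threshold of 0.05, leaving out each library, and, chosen after seeing the data, leaving out rRNA genes. Intervals and floors cover counting error only.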

Additional observations from a re-analysis of the deposited data

How the results depend on the processing

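The counts of genes called stayed within 1.5 times under library sizes in place of TMM, DESeq2, the 6 libraries alone, no count minimum, leaving out rRNA genes (chosen after seeing the data) and the leave-one-out fits, where 4782 to 4999 genes were higher and 4612 to 4869 lower, and 1034 to 1064 and 2385 to 2533 with the 2-fold rule. Same-numbered libraries of 1 and 5 days deviated together with r of -0.076, -0.036 and 0.079, so the numbers do not pair them, and a fit with the replicate number as a block called 5084 genes higher and 4992 lower. A minimum of 100 counts in every library left 8057 genes, of which 3123 were higher and 2938 lower, and 158 and 621 with the 2-fold rule. It removes genes that are low at 1 age, and it moved the log2 changes of the genes it kept by a median of -0.13. Under it the medians turned to 0.18 for spermatogenesis genes, 0.22 for body-shape collagens, 0.23 for hedgehog-related genes, -0.072 for aminoacyl-tRNA synthetases, 0.092 for ceh genes, -1.21 for chemoreceptors, -0.18 for lipases, -0.25 for ferritins and metallothioneins and 0.42 for coelomocytes, and the log2 change of Y77E11A.1 to -0.0065. The median of antimicrobial peptides was -0.0081 with no count minimum, and that of the epidermis list ran from -0.17 to 0.015 over the leave-one-out fits, turning sign without 1-day replicate 2. Of the 67 lists 45 had a median below 0, and 42 to 45 had under the alternatives. The ribosomal and ATP synthase lists kept all members called lower under library sizes, DESeq2 and the stricter minimum, while the proteasome went from 6 higher and 13 lower to 9 and 12 with library sizes and to 2 and 20 with the stricter minimum. The stricter minimum also turned aminoacyl-tRNA synthetases from 10 higher and 8 lower to 5 and 13, the cytosolic heat shock list from 3 and 4 to 2 and 9, the chaperonin from 1 and 5 to 0 and 7 and mitochondrial chaperones from 2 and 5 to 0 and 6. Of 461 genes refitted, 31 lost a call in at least 1 alternative and 16 gained one. Among those named, spe-39, spn-4, htz-1, rpn-1 and cct-6 lost it under the stricter minimum alone. The cause of these moves was not tested. Read sampling limits the precision of genes with few counts, and the spread between libraries that of genes with many.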
